A study of Homo sapiens with 2 samples.

Results

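Synonymous coding edits are cytosines, read as uracil in some reads, whose conversion leaves the encoded amino acid unchanged. They were chosen as the positions listed in only 1 of 2 libraries that lie in the coding sequence of a GENCODE gene on the listed strand and at which C-to-U conversion changes the codon but not the amino acid of the Ensembl canonical transcript. Converted reads entered this choice only through the listing itself, since each table lists a position above a minimum fraction and a member is unlisted in the other table. There were 45657 such sites among 200468 positions listed in 1 library only, of which the RBFOX2 library held 23777 and the enzyme-only library 21880. The material was HEK293T cells, an immortalized line from human embryonic kidney that the labels also name HEK293XT, without any genetic change named there. In both samples, cells fixed in methanol received APO1-Nb, a purified fusion of the cytidine deaminase APOBEC1 with a nanobody against rabbit IgG. In the RBFOX2 sample a rabbit antibody against RBFOX2 had been bound first, and in the enzyme-only sample that antibody was left out. Full-length cDNA of the RNA was read by PacBio sequencing, with 1 library per group, so there is no replicate check. Every comparison below is between these 2 libraries and not between the conditions, and intervals are exact Clopper-Pearson 95% intervals that cover counting error only, since reads without molecular identifiers are not independent molecules.

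APOBEC1 deaminates cytosines in RNA and acts best where the base directly 5′ is A or U. RBFOX2 is a splicing regulator that binds the hexamer UGCAUG, mostly in introns and untranslated regions, but the hexamer also occurs in coding exons. In the genetic code every codon ending in C has a partner ending in U for the same amino acid, so conversion at the third base is always silent. Conversion of the first base is silent only in the leucine codons CUA and CUG. The middle base of each codon ending in C is the 5′ neighbour of the silent cytosine, so the amino acid sets the sequence in which the enzyme meets it. Conversion at a synonymous site therefore leaves the encoded protein sequence the same. Neither library lacked the enzyme. In controls without it the study also found C-to-U sites, which it ascribes to RNA damage and to reverse transcription or PCR errors. Sites made by the enzyme cannot be told apart here from such background.

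Windows of the transcribed strand around 6 groups of RBFOX2-library sites are shown first, because they hold the UGCAUG hexamer beside silent cytosines with many converted reads or with several sites. Capitals mark the listed synonymous cytosines and the hexamer, and T stands for U. Coordinates and bases are those of the hg38 genome, so these windows and those further below can include intron bases. The SLC25A5 window lies on the plus strand at chrX:119470965-119471007, in exon 4 of 4. The EIF4A1 window, also on the plus strand, lies at chr17:7577666-7577700 in exon 8 of 11. On the minus strand lie those of SF3B6 (chr2:24068342-24068402, exon 3 of 4), ERH (chr14:69394820-69394862, exon 2 of 4), PSMA7 (chr20:62140816-62140842, exon 2 of 7) and RPAP3 (chr12:47667750-47667801).
SLC25A5: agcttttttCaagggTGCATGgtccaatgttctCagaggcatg
EIF4A1: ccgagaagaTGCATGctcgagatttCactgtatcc
SF3B6: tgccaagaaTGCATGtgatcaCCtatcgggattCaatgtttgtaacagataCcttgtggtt
ERH: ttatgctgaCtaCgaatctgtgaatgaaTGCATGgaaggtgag
PSMA7: gacaacgtcTGCATGgcCtttgcaggt
RPAP3: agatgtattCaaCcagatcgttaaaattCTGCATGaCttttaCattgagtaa

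The next windows hold several of the sites with the most converted reads that lay more than 50 nt from the hexamer, 20 nt on each side of the capital cytosine. They show the base that precedes the cytosine, which was U in PPIA, C in ENO1 and A in the others. HSPD1, a further such site preceded by U, is not printed because its window runs past the stop codon. ACTB (minus strand, chr7:5527767-5527807), HNRNPK (minus strand, chr9:83972029-83972069), SRSF9 (minus strand, chr12:120464062-120464102) and PPIA (plus strand, chr7:44799831-44799871) came from the RBFOX2 library. NPM1 (plus strand, chr5:171390039-171390079), ENO1 (minus strand, chr1:8864053-8864093) and RAN (plus strand, chr12:130875756-130875796 and chr12:130875597-130875637) came from the enzyme-only library.
ACTB: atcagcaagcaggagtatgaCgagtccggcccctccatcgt
HNRNPK: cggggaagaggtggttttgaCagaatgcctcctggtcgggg
SRSF9: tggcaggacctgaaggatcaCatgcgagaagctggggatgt
PPIA: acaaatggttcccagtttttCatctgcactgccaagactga
NPM1: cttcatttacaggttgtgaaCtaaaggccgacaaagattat
ENO1: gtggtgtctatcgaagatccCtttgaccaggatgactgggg
RAN Asp200: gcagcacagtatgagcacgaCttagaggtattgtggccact
RAN Tyr147: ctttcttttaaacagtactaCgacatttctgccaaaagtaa

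The RBFOX2 table listed 121930 sites in 10199 genes. The enzyme-only one had 103684 sites in 10182 genes. The reads of those genes summed to 2431345 and 2233600, with a median of 96 and 87 reads per gene. Of the HEK293T markers, KRT18 was listed with 417 and 411 reads and CDH2 with 207 and 221, while PAX8 and LHX1 were in neither table and VIM, KRT8 and PAX2 were each in only 1. None of the 8 markers of other cell types was listed, and RBFOX2 itself had 247 and 221 reads. A gene is listed here only where at least 1 edit was found in it, so a missing marker is not a missing transcript.

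Synonymous sites made up 45.5% (interval 45.0 to 45.9) of the 52289 classified coding sites of the RBFOX2 library and 46.1% (45.7 to 46.6) of the 47441 of the enzyme-only library. Of all 3619597 coding cytosines in the 8294 genes with such a site, 42.1% were synonymous, 50.5% changed an amino acid and 7.47% created a stop codon. The synonymous share of sites was thus above the share of such cytosines in both libraries. Per 1000 synonymous cytosines there were 15.6 sites (15.4 to 15.8) in the RBFOX2 and 14.4 (14.2 to 14.6) in the enzyme-only library, a ratio of 1.09 (1.07 to 1.11). Members lay in 5921 and 5755 genes, of which 4464 were common to both libraries. A gene with any member had a median of 3 in the RBFOX2 and 2 in the enzyme-only library. The deposited isoform models placed 99.7% and 99.6% of the members in an exon.

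Among silent cytosines at codon position 3, sites were most frequent in the codons for phenylalanine and tyrosine and least frequent in those for serine, arginine and cysteine. In the RBFOX2 library, 29.3 of 1000 Phe (UUC) cytosines were listed (28.1 to 30.4) against 6.56 (6.05 to 7.12) of the Ser codon AGC. The enzyme-only library had, for the same codons, 25.1 (24.0 to 26.1) and 6.69 (6.16 to 7.24). Every codon with A or U as its middle base, from Phe down to His (CAC) at 15.5 and 14.0, had a higher rate in both libraries than every codon with C or G there. The highest of the latter was Pro (CCC), with 9.66 (9.03 to 10.3) sites per 1000 cytosines in the RBFOX2 and 11.2 (10.5 to 11.9) in the enzyme-only library. The middle base divided the codons without overlap.

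The libraries differed by codon in opposite directions. Asp (GAC) cytosines were listed at 24.5 per 1000 (23.7 to 25.4) in the RBFOX2 and 19.8 (19.0 to 20.6) in the enzyme-only library. Tyr (UAC) cytosines stood at 27.8 (26.5 to 29.1) against 22.7 (21.6 to 23.9). Both codons were higher in the RBFOX2 library, with intervals that do not overlap. For Ala (GCC) the order turned, with 8.26 (7.77 to 8.77) in the RBFOX2 and 9.55 (9.03 to 10.1) in the enzyme-only library. Over all cytosines of codon position 3 preceded by A or U the rates were 22.3 (21.9 to 22.7) and 18.9 (18.6 to 19.2), a ratio of 1.18 (1.15 to 1.21). After C or G they were 8.04 (7.83 to 8.26) and 8.95 (8.72 to 9.18), a ratio of 0.899 (0.866 to 0.933). The preference for A or U over C or G was therefore 2.77-fold in the RBFOX2 and 2.11-fold in the enzyme-only library.

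**Figure D1:**
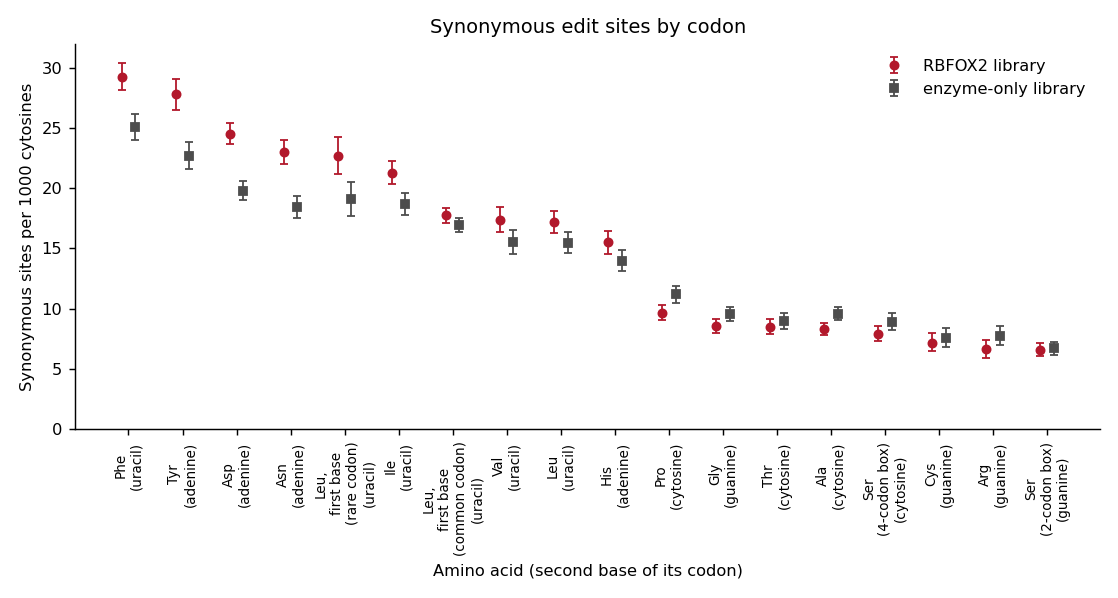
Synonymous sites per 1000 cytosines (vertical axis) for each codon, named by its amino acid and middle base (horizontal axis), in the RBFOX2 (circles) and the enzyme-only library (squares), with exact 95% intervals. Codons with A or U in the middle lie at 14.0 or higher in both libraries, codons with C or G at 11.2 or lower. For leucine, the rare codon of the silent first base is CUA and the common one CUG.

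Leucine gives a check outside codon position 3, since the silent first base is preceded by the last base of the codon before and not by a base of its own codon. There the rate followed the neighbour again. After A, 32.7 of 1000 such cytosines (30.7 to 34.7) were listed in the RBFOX2 and 26.4 (24.6 to 28.2) in the enzyme-only library. After G, the values were 11.7 (10.9 to 12.5) and 11.9 (11.1 to 12.7). In sum, 69.4% of the synonymous sites (68.8 to 70.0) in the RBFOX2 and 63.5% (62.9 to 64.1) in the enzyme-only library had A or U directly 5′, against 47.0% of all synonymous cytosines.

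The base on the 3′ side, taken on the genome, also mattered. With A on the 5′ side and U on the 3′ side, the rate was 33.3 per 1000 (32.2 to 34.4) in the RBFOX2 and 27.0 (26.1 to 28.0) in the enzyme-only library, the highest of the 16 combinations in both. With A on the 5′ side and C on the 3′ side it was 13.8 (13.0 to 14.5) and 12.5 (11.8 to 13.2), below the rate of a cytosine between C and U at 16.0 (15.4 to 16.7) and 17.1 (16.5 to 17.8). Among cytosines after A, those followed by C had the lowest rate in both libraries. The lowest rate of the RBFOX2 library, 5.33 (4.86 to 5.84), was that of cytosines between G and C.

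The A and U content of the 20 nt on each side, taken on the genome with introns included, separated the libraries further. Its mean was 45.6% over all synonymous cytosines, 49.8% at the RBFOX2-library sites and 47.8% at the enzyme-only sites. For cytosines preceded by A or U, the RBFOX2 library rose from 13.7 sites per 1000 (12.6 to 14.9) at 30% or less to 35.9 (34.8 to 37.0) above 60%. The enzyme-only library rose from 14.8 (13.7 to 16.0) to 24.8 (23.9 to 25.7). The rates were alike in the poorest flanks, and the RBFOX2 rate was the higher in the richest. For cytosines preceded by C or G, the rates stayed between 8.18 and 10.5 in both libraries at every A and U content.

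**Figure D2:**
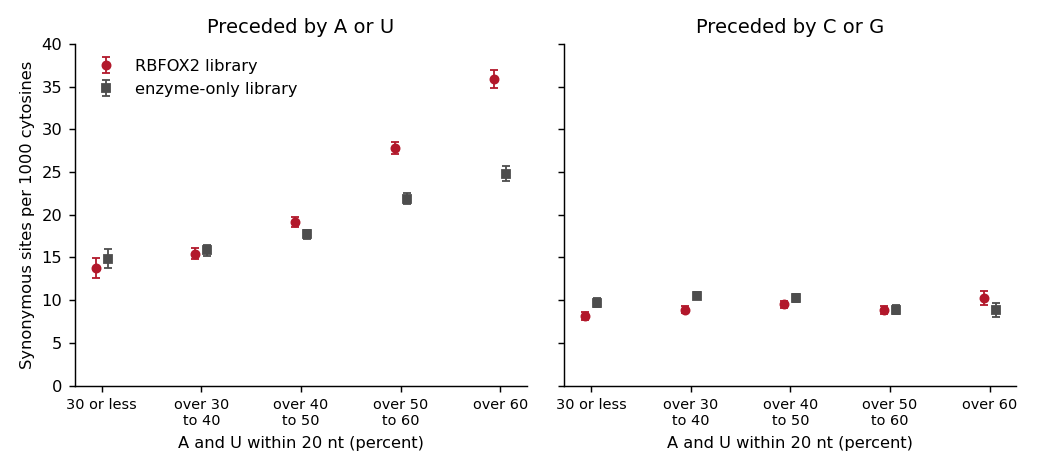
Synonymous sites per 1000 cytosines (vertical axes) by the percentage of A and U within 20 nt on each side (horizontal axes), for cytosines preceded by A or U (left) and by C or G (right), with exact 95% intervals. The libraries part above 40% in the left panel, up to 35.9 and 24.8, while no such rise is seen on the right.

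The class of coding change was compared at the same 5′ base. After A or U, the RBFOX2 library listed 23.0 per 1000 synonymous cytosines (22.7 to 23.4), 21.8 (21.5 to 22.1) of those that change an amino acid and 21.7 (20.9 to 22.6) of those that create a stop codon. The enzyme-only rates were 19.4 (19.1 to 19.7), 17.9 (17.7 to 18.3) and 15.6 (14.9 to 16.3). Synonymous cytosines had the highest rate in each library, by a small margin in the first. The wider sequence around the 3 classes differs by codon structure, and its part in these differences was not tested.

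Most members rested on 1 converted read. At least 2 reads were converted at 12.9% (12.5 to 13.3) of the synonymous sites of the RBFOX2 and 9.76% (9.37 to 10.2) of those of the enzyme-only library. The share was 20.3% (17.9 to 22.9) and 15.0% (12.7 to 17.7) at the first base of leucine codons after A. At codon position 3 after A it was 18.2% (17.4 to 19.1) in the RBFOX2 and 12.6% (11.8 to 13.5) in the enzyme-only library. At codon position 3 after C or G the shares were 5.69% (5.08 to 6.35) and 5.90% (5.31 to 6.53), with overlapping intervals. The higher share of the RBFOX2 library was thus seen at cytosines with a favoured neighbour. These shares also depend on the listing rule given next, which admits only repeatedly converted sites in genes of 500 reads or more. With deeper genes left out, repeated conversion fell to 5.81% of the RBFOX2 and 4.11% of the enzyme-only sites. The shares by neighbour were not split by gene reads, so the part of the listing rule in them was not tested.

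The table lists no site with a fraction at or below 0.002 of the reads of the gene, so in a gene, as the tables define genes, of 500 reads or more no site with 1 converted read is listed. A few annotated genes hold several table genes, and the read classes that follow use the one with the most reads. Sites per 1000 synonymous cytosines rose with the reads of the gene, from 2.78 at 1 to 9 reads to 38.9 (38.2 to 39.6) at 200 to 499 reads in the RBFOX2 library, and from 3.02 to 39.0 (38.3 to 39.8) in the enzyme-only library. From 500 to 999 reads they fell to 20.6 (19.6 to 21.7) and 17.3 (16.3 to 18.4). In the 724 genes that had at least 500 reads in each library there were 1628 RBFOX2 and 1198 enzyme-only sites, a ratio of 1.36 (1.26 to 1.47), where the ratio of reads was 1.04. In the 6259 genes under 500 reads in each, the ratio of sites was 1.13 (1.11 to 1.15) and that of reads 1.11. The difference between the libraries was thus larger than the difference in reads where repeated conversion was required. Positions listed in both libraries are left out of these counts and would make the libraries more alike.

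Along the coding sequence, sites were fewest near the start codon and most frequent near the stop codon in both libraries. Expected numbers were taken from all synonymous cytosines of the same transcript. The coding sequence was cut into 10 parts of equal length. In the first of them, observed over expected was 0.682 (0.652 to 0.713) in the RBFOX2 and 0.804 (0.770 to 0.839) in the enzyme-only library. In the last part it was 1.46 (1.42 to 1.51) and 1.38 (1.34 to 1.43). The reads at each position are not given, so the part of incomplete 5′ ends of the cDNA in this slope was not tested.

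**Figure D3:**
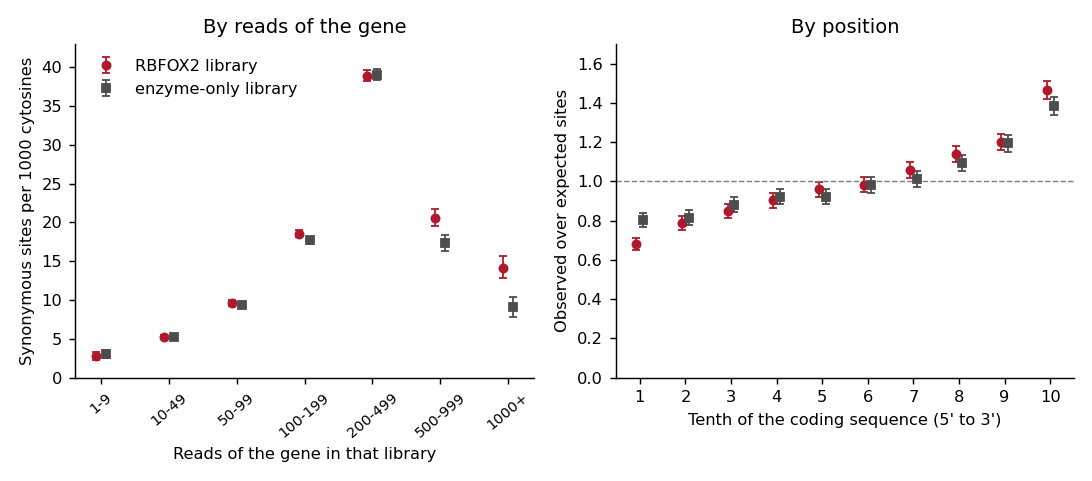
Left: synonymous sites per 1000 cytosines by the number of reads of the gene in that library. Right: observed over expected sites by part of the coding sequence, cut into 10 from 5′ to 3′, where the dashed line marks equality. Bars are exact 95% intervals. The left panel peaks near 39.0 at 200 to 499 reads in both libraries and the right one rises from 0.682 and 0.804 to 1.46 and 1.38.

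Around the RBFOX2 hexamer, the RBFOX2 library had more synonymous sites than expected and the enzyme-only library did not. Within 50 nt of UGCAUG lay 739 sites of the RBFOX2 library, 3.11% (2.89 to 3.34) against 2.61% expected from all synonymous cytosines of the same transcripts, a ratio of 1.19 (1.11 to 1.28). In the enzyme-only library 515 sites lay there, 2.35% (2.16 to 2.56) against 2.35% expected, a ratio of 1.00 (0.916 to 1.09). The intervals of the ratios do not overlap, but they treat each site as independent. Some sites share a gene or a hexamer, and the 739 and 515 sites lay in 509 and 400 genes. Sites that change an amino acid had ratios of 1.22 (1.13 to 1.31) and 0.966 (0.883 to 1.05), and stop-creating sites 1.38 (1.13 to 1.67) and 1.16 (0.899 to 1.47). The synonymous excess of the RBFOX2 library lay within the intervals of both other classes.

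The excess was greatest close to the hexamer. At 1 to 10 nt on the 5′ side 112 sites were observed in the RBFOX2 library, 1.52 times (1.25 to 1.82) the expected number, and on the 3′ side 75 sites, 1.28 times (1.01 to 1.61). At 11 to 20 nt on the 3′ side the ratio was 1.58 (1.28 to 1.93), while on the 5′ side it was 1.05 (0.817 to 1.33). Farther out, it was 1.20 (1.04 to 1.37) at 21 to 50 nt on the 3′ side but 1.01 (0.864 to 1.16) on the 5′ side. Between 51 and 100 nt the 5′ side had 1.18 (1.06 to 1.31) and the 3′ side 1.03 (0.910 to 1.16). From 101 to 200 nt the ratios were 1.03 and 1.06 with intervals that include 1. In the enzyme-only library every interval outside the hexamer included 1, and the ratios ran from 0.808 to 1.23.

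**Figure D4:**
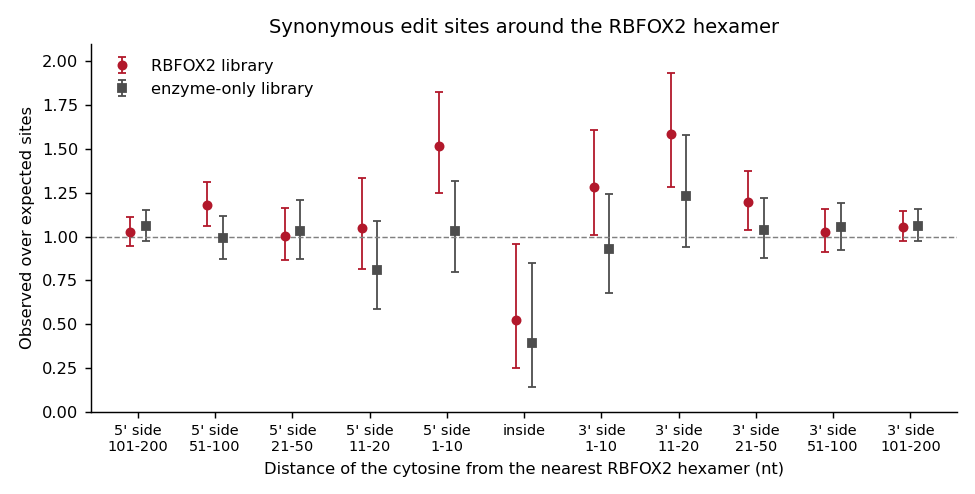
Observed over expected synonymous sites (vertical axis) by distance from the nearest RBFOX2 hexamer in nt (horizontal axis), with exact 95% intervals; the dashed line marks equality. The RBFOX2 library (circles) reaches 1.52 at 1 to 10 nt on the 5′ side and 1.58 at 11 to 20 nt on the 3′ side. The point inside the hexamer is low in both libraries, and its cytosine always follows a G.

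The hexamer holds 1 cytosine, which is silent only where UGC and AUG are read as codons for cysteine and methionine. That was so for 1106 of the 3295 coding cytosines inside UGCAUG. Of the 1106, 10 were listed in the RBFOX2 library, or 9.04 per 1000 (4.34 to 16.6), and 6 in the enzyme-only library, or 5.42 (1.99 to 11.8). All other UGC codons had 7.12 (6.39 to 7.91) and 7.60 (6.84 to 8.41). The cytosine inside the hexamer did not differ from those of other UGC codons beyond counting error. The single one with at least 2 converted reads was that of Cys301 in AHSA1, an activator of the HSP90 ATPase, with 2 of 764 reads in the RBFOX2 library.

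Sites with more converted reads lay closer to both preferences. In the RBFOX2 library the share preceded by A or U rose from 67.0% (66.3 to 67.6) at 1 converted read to 82.6% (81.0 to 84.2) at 2 and 95.9% (91.3 to 98.5) at 5 to 9, and all 25 sites with 10 or more reads had A or U there. The enzyme-only shares were 62.1% (61.4 to 62.8), 74.7% (72.6 to 76.7) and 92.7% (80.1 to 98.5), and 78.6% (49.2 to 95.3) of the 14 sites with 10 or more. Both libraries thus showed the neighbour preference more clearly at sites with repeated conversion. The hexamer ratio of the RBFOX2 library was 1.12 (1.04 to 1.21) for 1 read, 1.61 (1.36 to 1.90) for 2 or more and 2.52 (1.36 to 4.19) for 5 or more, where the last rests on 13 sites of 171. At 2 or more reads the enzyme-only ratio was 0.922 (0.669 to 1.24).

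**Figure D5:**
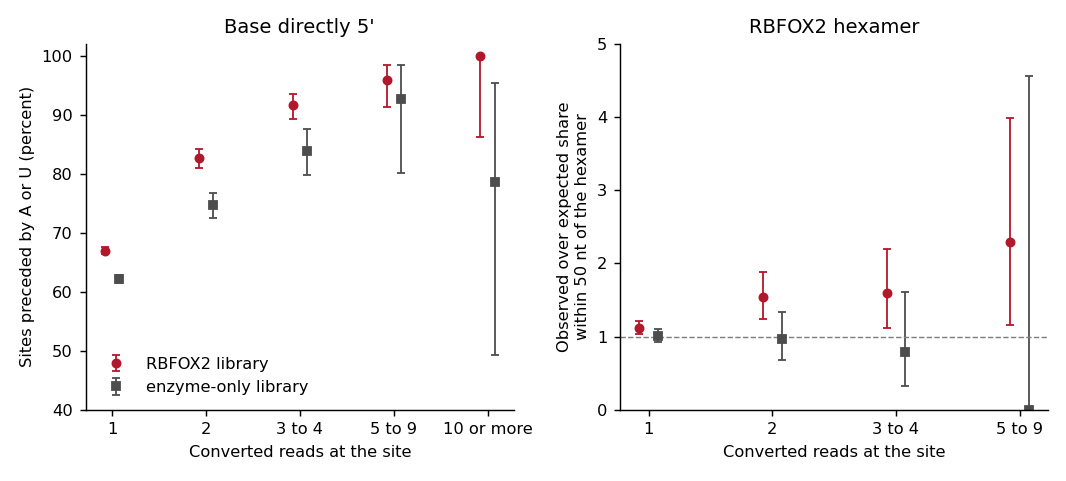
Left: percentage of synonymous sites with A or U directly 5′ (axis from 40%), by the number of converted reads. Right: observed over expected share within 50 nt of the RBFOX2 hexamer. Bars are exact 95% intervals and the dashed line marks equality. In the right panel the RBFOX2 library (circles) goes from 1.12 at 1 read to 2.30 at 5 to 9, and the class of 10 or more reads is not drawn.

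Preference for the hexamer was also read at each 5′ base. Among RBFOX2-library sites preceded by A or U, 548 lay within 50 nt, 1.23 times (1.14 to 1.34) the number expected from such cytosines of the same transcripts. Among those preceded by C or G, 191 did, 1.08 times (0.930 to 1.24). In the enzyme-only library the ratios were 1.00 (0.899 to 1.11) and 0.990 (0.852 to 1.14). With A or U on the 5′ side the excess was thus outside counting error, and with C or G it was not. The intervals of these 2 RBFOX2-library ratios overlap and the second rests on fewer sites, so they show no dependence on the 5′ base.

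The sites with the most converted reads sat in abundant transcripts and had low fractions. In ACTB, which encodes cytoplasmic β-actin, 37 of 13433 reads were converted at Asp363 in the RBFOX2 library, 0.275% (0.194 to 0.379). The enzyme-only library, with 13435 ACTB reads, did not list it and so had at most 26 converted reads. Members are by choice unlisted in the other library, so such bounds are descriptions and support no difference. In SLC25A5, a mitochondrial ADP/ATP carrier, Leu279 was converted in 18 of 3089 reads, 0.583% (0.346 to 0.919), 13 nt on the 3′ side of the hexamer printed above, and Phe271, 6 nt on its 5′ side, in 7. The enzyme-only library had 2794 reads and at most 5 converted at either cytosine, or 0.179%, which lies inside the interval at Phe271 (0.0912 to 0.466). EIF4A1, the RNA helicase of cap-dependent translation, had 17 of 8003 reads converted at Phe297, 11 nt on the 3′ side, with at most 14 of 7088 in the enzyme-only library. For EIF4A1 the bound in the enzyme-only library (0.198%) lies inside the interval of the RBFOX2 value (0.124 to 0.340), so no difference was detectable there.

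SF3B6, a subunit of the SF3B complex that binds the branch site, had the highest fraction of the 10 RBFOX2-library sites with the most converted reads within 50 nt of a hexamer. At His76, 7 nt on the 3′ side, 8 of 594 reads were converted, 1.35% (0.583 to 2.64), and the enzyme-only library had at most 1 of 616. Beside it Leu77, 8 nt from the hexamer, had 4 converted reads, Phe80 at 19 nt had 3 and Tyr86 at 37 nt had 3. The 4 cytosines are the capitals on the 3′ side of the hexamer in the printed window. ERH, a small nuclear protein of RNA processing and chromatin silencing, had 7 of 1820 reads converted at both Asp21 and Tyr22, 19 and 16 nt on the 5′ side. The enzyme-only library had no unshared synonymous site in ERH, and its bound of 0.190% lies inside the interval of either value (0.155 to 0.791). Whether the same molecules carried both conversions is not given.

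In RPL7, a protein of the large ribosomal subunit, 3 sites near hexamers had 7 or 8 of 2685 reads converted, at Asn131, Ile185 and Ile194. Ile185 lay 1 nt on the 5′ side of a hexamer and Ile194 21 nt on the 3′ side. In PSMA7, a subunit of the 20S proteasome, 7 of 2966 reads were converted at Ala72, 3 nt on the 3′ side of a hexamer read as Cys-Met. This was the only one of the 10 named sites near a hexamer that followed a C. The bound of the enzyme-only library, at most 5 reads in RPL7 and 5 in PSMA7, lay inside the intervals of all 4 of these sites.

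Sites of the RBFOX2 library with many reads also lay far from any hexamer. HSPD1, the mitochondrial chaperonin, had 17 of 5240 reads converted at Phe573. HNRNPK, a poly(C)-binding splicing regulator, had 15 of 2622 at Asp262, 0.572% (0.321 to 0.942), against at most 4 of 2470 in the enzyme-only library. SRSF9, an SR splicing factor, had 13 of 3510 at His130 and PPIA, or cyclophilin A, 13 of 4732 at Phe113. Of the 8 sites with the most converted reads in the RBFOX2 library, those of SLC25A5 and EIF4A1 were the ones within 50 nt of UGCAUG on the genome.

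The leading sites of the enzyme-only library were those of NPM1, a nucleolar histone chaperone, at Leu23 with 16 of 3862 reads, ENO1, a glycolytic enzyme, at Pro295 with 14 of 6924, and RAN, the GTPase of nuclear transport, at Asp200 with 13 of 4706 and at Tyr147 with 12. NPM1 had more reads in the RBFOX2 library, 4867, and at most 9 converted ones at Leu23. ENO1 was not listed in the RBFOX2 table. None of these sites lay near UGCAUG. The enzyme-only sites nearest in strength beside a hexamer had 3 converted reads each, in EEF1E1 (Leu94), RPL37A (Tyr71) and TXNL4A (Ile28). These are a cofactor of the tRNA synthetase complex, a ribosomal protein and a component of the U5 particle of the spliceosome.

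By gene, 1538 genes had at least 10 synonymous sites over both libraries and 276 (17.9%) were more than 2-fold higher in the RBFOX2 library after scaling by the library totals. Among the coding sites that are not synonymous, the corresponding share was 18.9% of 1934 genes. In the other direction, 273 genes (17.8%) were more than 2-fold higher in the enzyme-only library, beside 16.7% of those 1934 genes. Both synonymous shares were close to the background. Among the 1457 genes with the same minimum of converted reads in both libraries, 274 (18.8%) were higher in the RBFOX2 and 203 (13.9%) in the enzyme-only library. The balance of the 2 directions thus rested on genes with unequal minimums. At equal minimums the shares for the other coding sites were not computed. Whether the imbalance there is particular to synonymous sites was therefore not tested. The ratio of a gene with 10 sites carries wide counting error, so a gene past 2-fold need not differ beyond it.

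The genes with the most synonymous sites in the RBFOX2 library were CLPTM1, a membrane protein, with 31 against 22, and HEXA, a subunit of the lysosomal hexosaminidase, with 30 against 7. TUBB2A, a β-tubulin, had 27 against 21, PLK1, a mitotic kinase, 26 against 17, and FARSB, a subunit of the phenylalanyl-tRNA synthetase, 25 against 17. Among these 5 only HEXA had a log2 ratio whose interval lay above 0, at 1.90 (0.76 to 3.41), with 388 and 304 reads. All 5 were picked for their many sites in the RBFOX2 library, and the intervals do not allow for that choice. HEXA ran the other way at coding sites that are not synonymous, with 13 in the RBFOX2 and 21 in the enzyme-only library. Its synonymous sites in the RBFOX2 library ran from Asn43 to Leu508, and none lay within 50 nt of UGCAUG.

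The genes with the most sites in the enzyme-only library divide by the reporting threshold. NT5DC2, of the 5′-nucleotidase domain family, had 4 against 43 sites, TARS1, the threonyl-tRNA synthetase, 0 against 34, and MPST, a sulfurtransferase, 2 against 33. Their reads were 509, 505 and 580 in the RBFOX2 library, where 2 converted reads are needed, and 411, 463 and 495 in the enzyme-only library, where 1 is enough. These 3 differences therefore cannot be told apart from that threshold. TMEM161A, with 19 against 33, and KIF22, a mitotic kinesin with 23 against 29, had the same minimum in both. TMEM161A had a log2 ratio of -0.90 (-1.81 to -0.06) and KIF22 one of -0.45 (-1.31 to 0.39). Both were picked for their many sites in the enzyme-only library, and the intervals do not allow for that choice.

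With the same minimum in both libraries, the highest ratios were those of SELENOT, CCT8, PPP2CA, RPAP3 and EIF3E. SELENOT, a selenoprotein of the endoplasmic reticulum, had 16 sites against 0 with 387 and 353 reads. CCT8, a subunit of the cytosolic chaperonin, had 13 against 0 with 1361 and 1261 reads. The minimum for listing in CCT8 was 3 converted reads in both libraries, and its sites reached 8 at Phe197 and Leu208. PPP2CA, the catalytic subunit of protein phosphatase 2A, had 11 against 0 with 1387 and 1260 reads, up to 6 at Phe129. These genes differed much more in sites than in reads. The intervals put the log2 ratio above 1.83 in SELENOT, 1.49 in CCT8 and 1.21 in PPP2CA. The genes named here, RPAP3 and EIF3E included, were picked for their high ratios, and their intervals do not allow for that choice. Positions listed in both libraries are not counted, so 0 means no synonymous site listed in that library alone.

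RPAP3, a cochaperone of HSP90 in the assembly of RNA polymerase II, had 21 sites against 1 with only 156 and 138 reads, a log2 ratio of 3.72 (1.64 to 9.64). Of its 21 sites 5 lay within 20 nt of a single hexamer, at Phe591, Asn592, Leu598, Asp600 and Tyr602, and are the capitals of the window printed above. Leu598 lay directly 5′ of the hexamer and Asp600 2 nt on its 3′ side. Tyr602 had 3 converted reads, Asp600 had 2 and the other 3 sites had 1 each. EIF3E, a subunit of initiation factor 3, had 16 against 1 with 788 and 698 reads and no site within 50 nt of UGCAUG. In SELENOT 3 sites lay within 50 nt, in CCT8 2 and in PPP2CA 1.

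The lowest ratios at equal minimum were those of AP1G2, an adaptor subunit of vesicle coats, with 0 against 11 sites, CDX2, an intestinal homeobox factor, NDUFA13, a subunit of respiratory complex I, and RASSF7 with 0 against 10 each, and CHAF1B, a subunit of chromatin assembly factor 1, with 1 against 15. Their 56 enzyme-only sites had 1 converted read each except 1 site of NDUFA13 with 2. These 5 genes have a minimum of 1 converted read, while CCT8, PPP2CA and EIF3E have one of 2 or 3, so the converted reads of the 2 sets of genes were not compared. The intervals put the log2 ratio below -1.45 in AP1G2 and below -1.33 in CHAF1B. These genes were likewise picked for their ratios, and the intervals do not allow for that choice.

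The gene groups were chosen by symbol, and over all genes the ratio of RBFOX2 to enzyme-only synonymous sites was 1.09. Cytosolic ribosomal proteins had 66 against 68 sites, translation factors 185 against 205, proteasome subunits 178 against 192 and aminoacyl-tRNA synthetases 194 against 212. The hnRNP genes had 63 against 54, SR proteins 7 against 6, MCM2 to MCM7 63 against 59, cholesterol synthesis enzymes 73 against 69 and tubulins and actins 62 against 75. Each of these intervals of the ratio included 1. The chaperonin CCT had 32 against 5, a ratio of 6.40 (2.48 to 21.0). Its genes with a member all had more than 500 reads in both libraries. Over all genes of at least 500 reads in both, the ratio was 1.36 (1.26 to 1.47). CCT8, named above for its high ratio, held 13 of the 32 sites.

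Of the CCT subunits with a member, CCT8 had 13 sites against 0, CCT4 7 against 2, CCT2 4 against 0, CCT7 4 against 1, CCT6A 3 against 0 and CCT5 1 against 2. The group has no site beyond CCT8 within 50 nt of UGCAUG. At coding sites that are not synonymous the contrast was smaller, with 22 against 6 in CCT8 and 13 against 7 in CCT4. Reads differed little, from 2460 and 2410 for CCT2 to 1361 and 1261 for CCT8, and the minimum for listing, 3 to 5 converted reads, was the same in both libraries for each. The LASR partners, proteins of the complex in which RBFOX works in the nucleus, had 18 against 7 sites, a ratio of 2.57 (1.02 to 7.28). That interval includes the ratio over all genes, 1.09, and that over genes of at least 500 reads in both libraries, 1.36. Of the 18, 8 were in DDX5, an RNA helicase with 0 enzyme-only sites and 1057 and 1061 reads, and none of the 18 lay within 50 nt of UGCAUG.

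Of the genes on which the study dwells, RBFOX2 itself had 2 synonymous sites against 5, OGT, the O-GlcNAc transferase, 3 against 1, DEPDC1 2 against 0 and DCUN1D4, a neddylation factor, 1 against 1. All of these rested on 1 converted read. APP and PKM had no coding site listed in a single library. These counts are too few for a comparison.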

How the data were processed

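The analysis used C-to-U edit sites of 1 RBFOX2 and 1 enzyme-only long-read cDNA library of HEK293T cells, assigned by their descriptions in the labels. Per the labels, libraries were made with a PacBio Iso-Seq kit. The methods of the study describe another kit, alignment to hg38 with pbmm2 and further replicates (not analysed here), and whether the tables stem from that run is unclear. For each site the authors deposited counts of converted reads and of the reads of its gene, 1 value per gene and library. The deposited edit fraction is the ratio of these, not of reads at the position, and every listed fraction was above 0.002. A confidence score deposited by the authors served only in an alternative. The study kept its short-read sites only above a confidence score of 0.5, which just 251 RBFOX2 and 288 enzyme-only members exceeded here. Whether the deposited long-read score has the same scale is not stated. Isoform models gave only whether a member lay in an exon. The exon numbers printed above are those of the Ensembl canonical transcript.

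Codons were read from GENCODE 44 and hg38, where 100% of the listed positions were cytosines. Positions outside the canonical coding sequence (1071 RBFOX2, 932 enzyme-only), positions on which overlapping canonical transcripts disagreed (36 and 30) and 2504 synonymous positions listed in both libraries were left out. Rates divide sites by all synonymous cytosines of the 8294 genes with a coding site. Expected numbers are means over the synonymous cytosines of the same canonical transcript. Distances to UGCAUG, with no mismatch and on the same strand, were taken on the genome, introns included and from the nearest base of the hexamer, and 2.43% of all synonymous cytosines lay within 50 nt. Gene ratios used a pseudocount of 0.5 and the library totals. No test was run, as each group has 1 library. Intervals are exact Clopper-Pearson 95% intervals (scipy 1.17.1, pandas 2.3.3, Python 3.11.15), and those of ratios divide the bounds by the expected share or come from the RBFOX2 share of both libraries' sites. The calculations were tested on simulated sites.

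The named sites were those with the most converted reads in each library, over all members and within 50 nt of UGCAUG. The named genes were those with the most sites, those with the highest and lowest ratios among genes of at least 10 sites, listed in both tables with the same minimum of converted reads, and those the study discusses. One site named by this rule is not reported here. The members and lists were chosen with earlier results of these data known. Alternatives covered converted reads, shared sites, gene reads, transcripts, the 5′ neighbour, the window and the score.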

Additional observations from a re-analysis of the deposited data

How the results depend on the processing

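The 8 kinds of result were recomputed under 64 alternative settings over both libraries, of which 23 stayed within their interval or within 1.5 times and the RBFOX2 hexamer ratio stayed above 1 under each of its 5. No paired analysis was possible because there is 1 library per group and the labels give the libraries different replicate numbers. Values are given for the RBFOX2 library first. With at least 2 converted reads, 3069 and 2135 sites were left, 48.4% and 48.6% of coding sites were synonymous, 85.5% and 76.6% had A or U 5′, 4.46% and 2.01% lay within 50 nt of UGCAUG and the RBFOX2 ratio was 1.61. Per 1000 third-position cytosines, 3.51 and 2.19 such sites followed A or U, and 0.458 and 0.528 C or G. In genes listed in both libraries the corresponding rates of all sites were 26.3 and 22.2, and 9.55 and 10.6. In genes of at least 500 reads in both libraries, 50.9% and 50.1% of coding sites were synonymous and 100% had 2 or more converted reads, by the reporting minimum. In genes of at most 500 reads that share was 5.81% and 4.11%. Requiring a silent change in every protein-coding transcript gave 44.3% and 44.8% synonymous. With the shared positions kept, 70.6% and 65.5% of sites had A or U 5′ and 14.6% and 11.3% had 2 or more converted reads. A score above 0.5 gave 68.5% and 62.2% with A or U, and 2.39% and 1.74% near UGCAUG. The hexamer ratio was not computed at that score. Windows of 20 and 200 nt held 1.51% and 1.01%, and 10.7% and 9.58% of sites, with RBFOX2 ratios of 1.30 and 1.10. At a minimum of 20 sites, 56 and 54 of 364 genes (15.4% and 14.8%) were beyond 2-fold. The share among coding sites that are not synonymous was not computed at that minimum. The lower numbers and rates at 2 or more reads and the shares in wider windows follow from the settings themselves. The cause of the other shifts was not tested. Depth limits single genes, since the reporting minimum rises with the reads of the gene.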

Other observations

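The 2504 synonymous positions listed in both libraries, which are no members, had A or U directly 5′ in 82.5% (80.9 to 83.9), above the shares of the members of either library. Their median fraction was 0.382% in the RBFOX2 and 0.391% in the enzyme-only library. Position by position, the fraction was higher in the enzyme-only library at 1695 and higher in the RBFOX2 library at 791. The fraction divides by the reads of the gene, and the part of those reads in this count was not tested. At least 2 reads were converted at 30.2% of the 2504 positions in the RBFOX2 and at 24.7% in the enzyme-only library, and 18 had fractions above 30% in both.

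Among the members, 38 of the RBFOX2 and 41 of the enzyme-only library had a fraction above 30%. All of them lay in genes with at most 6 and 5 reads, and 37 and 40 rested on 1 converted read. A confidence score above 0.5 was given to 251 and 288 members.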
